A study of Mus musculus with 4 samples.

Results

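Open chromatin at the genes of 9 receptors for motor neuron survival factors was compared between Hoxa5-deficient and control motor neurons. The genes are Ret, Gfra1 and Gfra2 for ligands of the glial cell line-derived neurotrophic factor (GDNF) family, Met for hepatocyte growth factor (HGF), Ngfr, Ntrk2 and Ntrk3 for neurotrophins, and Lifr and Cntfr for leukaemia inhibitory factor (LIF) and ciliary neurotrophic factor (CNTF). Accessible intervals of the 4 libraries were merged, and a merged region belongs here to the coding gene that contains its midpoint, or failing that to the nearest such gene within 100 kb. The 9 genes held 311 of 199576 regions in all, and 165822 regions lay within reach of some protein-coding gene. Of the 311 regions, 197 lay inside the gene bodies. The farthest region kept was 97.0 kb from Lifr and found in a single library, and the nearest left out lay just past the limit at Ntrk3, also in a single library.

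Open chromatin was mapped by ATAC-seq, which inserts sequencing adapters with the Tn5 transposase where DNA is not packed away. Cells came from the cervical region of mouse embryos at embryonic day 12.5 and were sorted for a ChAT::GFP transgenic reporter, which marks cholinergic neurons and was carried by both groups. There were 2 Hoxa5-deficient libraries and 2 libraries from control littermates, and the submitters call the libraries of a group biological replicates. The labels give neither the number of embryos behind a library, nor the kind of Hoxa5 mutation, nor the genotype of the controls beyond that word, nor a preparation batch.

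These receptors sit on the surface of motor neurons and bind factors released by limb and trunk muscle, Schwann cells and other cells of the nerve. Embryonic motor neurons compete for such factors, and those that receive too little die during development. GDNF family ligands bind a GFRα coreceptor that is anchored in the membrane and signals through the Ret tyrosine kinase. Neurotrophins bind Trk tyrosine kinases and the death domain receptor Ngfr, HGF binds the tyrosine kinase Met, and CNTF binds Cntfr, which signals with Lifr and the shared subunit Il6st. Motor pools differ in which of these receptors they use, and sensory neurons and Schwann cells use several of them too.

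The Hoxa5-deficient lists held 127458 and 138248 intervals and the control lists 115089 and 113505. Read depth is not stated. The whole number of tags stacked at a summit and its local background could be recovered from the deposited fold and p-value for 100% of regions, and the lowest background, which scales with depth, was 5.14 and 6.06 tags in Hoxa5-deficient libraries and 4.39 to 5.43 tags in controls. Strength was therefore compared as a rank: the percentile of a region's highest −log10 p among the 65789 regions found in all 4 libraries, with 100 the strongest. For tests the ranks were turned into normal scores, so that a difference of 1 is 1 SD of the scores. The gap in percentiles that it spans depends on the position in the list. A region is called found only in Hoxa5-deficient libraries, or control-only, where both libraries of that genotype and neither of the other listed it, and both kinds are single-genotype regions. Both regions at Hoxa5 itself were found in all 4 libraries, and since the labels do not say what was removed they do not check the genotype. Among motor neuron markers, the strongest region at an end of Chat, which it shares with Slc18a3, stood at percentiles 91.1 and 93.2 of the Hoxa5-deficient lists and 79.5 and 85.1 of the control lists. Prph had a region at a gene end in 1 control library only. The 10 motor neuron markers had a gene-end region for 8 and 9 genes in Hoxa5-deficient libraries and for 10 and 9 in controls.

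Markers of other cell types were present as well. Spinal interneuron markers had a gene-end region for 7 and 6 of 7 genes in Hoxa5-deficient libraries and for 7 of 7 in each control. The summed percentile of that list was 343.4 and 375.2 in Hoxa5-deficient libraries and 464.7 and 444.0 in controls. Lmx1b stood at 11.8 and 0 (no such region) in Hoxa5-deficient libraries, against 57.1 and 62.3 in controls. Members of the list went both ways: Slc17a6 stood at 86.1 and 88.4 in Hoxa5-deficient libraries, against 70.9 and 75.2 in controls, and En1 at 54.8 and 63.5 in Hoxa5-deficient libraries, against 58.2 and 45.3 in controls. For sensory neuron markers the sum was 369.7 and 391.2 in Hoxa5-deficient libraries and 370.2 and 409.4 in controls, with Avil and Runx1 at 0 in each library. For neural crest and Schwann markers it was 369.3 and 381.2 in Hoxa5-deficient libraries and 366.5 and 350.2 in controls. Neural progenitor markers summed to 443.3 and 448.9 in Hoxa5-deficient libraries and to 442.6 and 468.7 in controls. Within that list Sox2, Hes5 and Pax6 were lower in both Hoxa5-deficient libraries than in either control. Olig2 and Vim were higher in both, and Nes overlapped. Sox2 stood at 75.3 and 74.8 in Hoxa5-deficient libraries and at 88.7 and 86.4 in controls. Olig2 stood at 75.7 and 80.8 in Hoxa5-deficient libraries and at 50.0 and 67.4 in controls. In the rank test 8 of the list's 30 shared regions passed as lower and 2 as higher. Muscle and mesenchyme markers reached 244.0 and 262.7 in Hoxa5-deficient libraries and 297.5 and 283.7 in controls, and blood and microglia markers 149.3 and 154.4 in Hoxa5-deficient libraries and 173.4 and 179.4 in controls. Endothelial markers summed to 85.4 and 88.7 in Hoxa5-deficient libraries and to 87.1 and 84.3 in controls. Pecam1, Cdh5 and Tek of the endothelial list and Ptprc and Aif1 of the blood list had no gene-end region in any library. These percentiles come from lists of different lengths. The interneuron, muscle and blood sums were lower in both Hoxa5-deficient libraries than in either control, though Myod1 and Twist1 of the muscle and mesenchyme list were higher in both and Pdgfra and Col1a1 lower, and the part of such cells in the results at the receptor genes was not tested.

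Promoter windows in RefSeq's table for the build GRCm38.p6, from 250 bases before to 50 after a listed transcription start, matched 6 of the 9 genes. The Met, Ngfr, Ntrk2 and Gfra1 windows, and the upstream Lifr window, lay wholly in regions found in all 4 libraries. Those of Ntrk2 and Lifr are shown because their regions were the strongest of the starts, that of Met because its region was the weakest of the windows in regions found in all 4 libraries. A window at an internal start of Cntfr is shown because a region that only the Hoxa5-deficient libraries had overlapped it. Capitals mark GC boxes (GGGCGG), the homeodomain core TAATTA, the Pbx-Hox pattern TGATNNAT and the E-box CAGCTG, searched on both strands together with TATAAA, which was not found in any of the 4 windows. In the Cntfr window the second E-box directly precedes TAATTA, and TGATNNAT is read there on the other strand as ATTAATCA.
Ntrk2, chr13:58806319-58806618, plus strand: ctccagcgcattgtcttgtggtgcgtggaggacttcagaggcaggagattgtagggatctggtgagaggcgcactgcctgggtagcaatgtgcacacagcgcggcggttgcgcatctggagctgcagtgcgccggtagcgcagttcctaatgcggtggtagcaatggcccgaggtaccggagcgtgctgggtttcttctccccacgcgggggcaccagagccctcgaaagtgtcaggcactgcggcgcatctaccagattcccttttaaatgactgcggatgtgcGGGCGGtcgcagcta
Lifr, chr15:7129322-7129621, plus strand: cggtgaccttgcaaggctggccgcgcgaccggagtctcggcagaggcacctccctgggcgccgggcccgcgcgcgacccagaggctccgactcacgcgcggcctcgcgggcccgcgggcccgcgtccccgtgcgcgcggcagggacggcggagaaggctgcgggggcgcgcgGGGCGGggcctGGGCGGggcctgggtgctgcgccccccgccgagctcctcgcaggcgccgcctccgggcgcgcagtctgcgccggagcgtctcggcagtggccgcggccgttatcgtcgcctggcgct
Met, chr6:17463707-17464006, plus strand: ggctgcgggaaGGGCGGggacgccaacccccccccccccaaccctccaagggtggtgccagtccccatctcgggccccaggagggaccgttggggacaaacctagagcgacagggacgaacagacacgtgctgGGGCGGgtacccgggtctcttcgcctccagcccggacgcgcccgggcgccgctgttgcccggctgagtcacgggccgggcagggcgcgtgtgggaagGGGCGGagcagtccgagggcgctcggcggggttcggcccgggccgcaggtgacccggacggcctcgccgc
Cntfr, chr4:41689131-41689430, minus strand: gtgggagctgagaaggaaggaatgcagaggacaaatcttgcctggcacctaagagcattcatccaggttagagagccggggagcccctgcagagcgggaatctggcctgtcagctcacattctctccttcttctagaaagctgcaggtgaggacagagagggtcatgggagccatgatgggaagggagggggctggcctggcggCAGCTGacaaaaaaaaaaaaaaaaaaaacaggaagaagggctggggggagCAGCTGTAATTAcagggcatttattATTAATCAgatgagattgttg

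A GC box stood once in the Ntrk2 window, 2 times in that of Lifr and 3 times in that of Met, and 35.7% of 32851 promoter windows held at least 1. The CpG count was 23 in the Ntrk2 window, 53 in that of Lifr and 34 in that of Met, against 3 in the Cntfr window and a median of 7 over all windows. The Cntfr window held TAATTA once, which 5.29% of windows have, TGATNNAT once (8.85%) and CAGCTG 2 times (16.3%). All 4 of these matches lay in the 124 bases that the region covered. A match of letters is a description and does not show that a factor binds there.

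The start regions of Ntrk2, Lifr, Gfra2, Ngfr and Met were open in both genotypes, with ranks that overlapped between them. The Ntrk2 start region (chromosome 13, 58806319 to 58807188, mm10) had percentiles of 91.9 and 93.2 in Hoxa5-deficient libraries and 92.7 and 90.7 in controls, with 379 and 575 tags at its summit in Hoxa5-deficient libraries and 367 and 275 in controls. The Lifr start region (chromosome 15, 7128702 to 7130121), 38.8 kb inside the annotated body, had percentiles of 89.0 and 90.6 in Hoxa5-deficient libraries and 91.5 and 90.4 in controls. At the lower-coordinate end of Gfra2 (chromosome 14, 70889239 to 70890739) the percentiles were 81.7 and 87.9 in Hoxa5-deficient libraries and 86.5 and 84.4 in controls. These 3 were the strongest of the start regions in each library. Ngfr's start region (chromosome 11, 95586244 to 95588003) had 78.1 and 83.9 in Hoxa5-deficient libraries and 81.1 in each control, and Met's (chromosome 6, 17463365 to 17464693) had 57.9 and 53.8 in Hoxa5-deficient libraries and 61.9 and 53.3 in controls. None of these 5 passed the rank test (limma on normal scores of the ranks, Benjamini-Hochberg over 65789 regions, adjusted p from 0.605 to 0.993). Their score differences lay between −0.07 and 0.06, with an SE of 0.08 to 0.16.

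Ranks at the starts of Gfra1 and Ret did not overlap between genotypes, but neither passed. The Gfra1 start region (chromosome 19, 58454202 to 58456169) had percentiles of 65.3 and 67.0 in Hoxa5-deficient libraries and 79.7 and 73.9 in controls (score difference −0.32, SE 0.11, limma adjusted p = 0.0584). At the upper-coordinate end of Ret (chromosome 6, 118196611 to 118197970) they were 73.7 and 75.3 in Hoxa5-deficient libraries and 70.9 and 66.4 in controls (0.17, SE 0.11, adjusted p = 0.290). The upper-coordinate end of Ntrk3 carried a weak region (chromosome 7, 78579916 to 78580122), with percentiles of 24.8 and 6.2 in Hoxa5-deficient libraries and 29.2 and 13.1 in controls. Beside it, farther inside the gene, lay a wider and stronger region (78577055 to 78579326). Its percentiles were 53.4 and 56.0 in Hoxa5-deficient libraries and 66.1 and 64.6 in controls, without overlap, and it did not pass (limma adjusted p = 0.172). A second region near the Ntrk2 start (chromosome 13, 58807378 to 58808831) stood at 61.1 and 65.7 in Hoxa5-deficient libraries and 56.0 and 62.4 in controls. At Cntfr, 5 of the 6 listed start windows, between 41695404 and 41696287 on chromosome 4, overlapped no region in any library, and neither did the downstream window of Lifr.

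**Figure D1:**
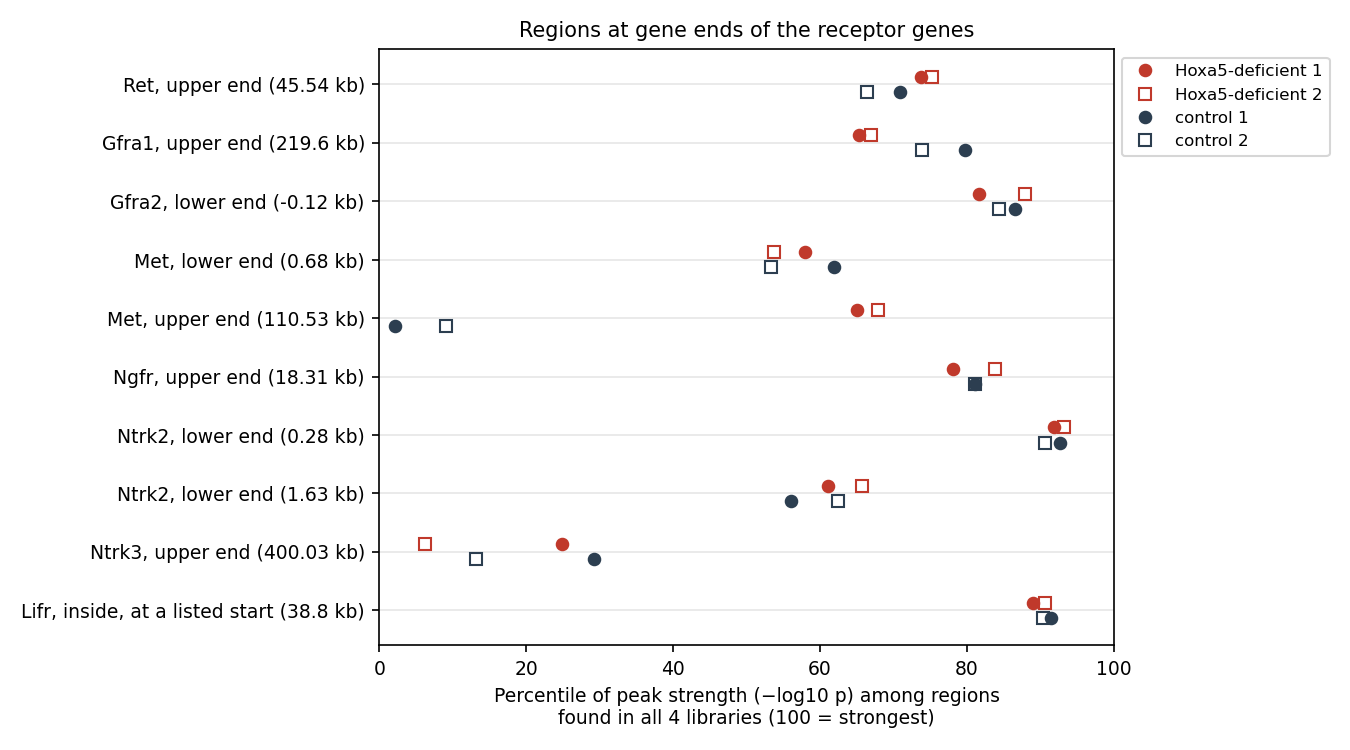
Percentile of peak strength (x axis, 100 strongest) of the regions within 1 kb of an end of a receptor gene and of the region at the listed internal Lifr start, with 1 point per library, red for Hoxa5-deficient and dark for control. At most gene starts the points of the genotypes overlap, while the upper end of Met stands at 65.0 and 67.9 in Hoxa5-deficient libraries and at 2.1 and 9.0 in controls.

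Of 104 receptor regions found in all 4 libraries, 16 (15.4%) passed the rank test, 11 with a higher and 5 with a lower rank in Hoxa5-deficient libraries, while 20.6% of all shared regions passed. By direction, 10.58% of receptor regions passed as higher and 4.81% as lower, against 11.1% and 9.53% of all shared regions. Among shared regions assigned to a gene, 19.46% passed, 9.879% as higher and 9.585% as lower. The receptor share over both directions was below either background, which is given as a description. By direction the lower share was below both, and the higher share was near both. At an unadjusted p under 0.05 there were 34 of 104, beside 22746 of all 65789. The median score difference was −0.07 over the 104 and −0.03 over all. Ranks did not overlap between genotypes at 28 receptor regions in the higher direction and at 40 in the lower (26.9% and 38.5%), against 29.1% and 32.8% of all shared regions. In 2 against 2 libraries an exact permutation test of a single region cannot go below p = 0.333, so these calls rest on limma's pooled variance. A change in the share of cells that open a region and a change in how open it is in each cell cannot be told apart in sorted bulk cells.

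Away from gene ends 15 of 95 receptor regions passed, against 23.3% of all such regions, and within 1 kb of an end 1 of 9 did, against 11.1%. Of the 16 regions, 4 passed under each alternative that kept them in the table: Gfra2 inside the gene, Met at its upper end, Gfra1 at 161.03 kb from its lower-coordinate end, and Lifr at 104.41 kb from its own. None of the 16 changed sign under any alternative. Without the trend of variance with strength 6 of the 16 passed, 5 higher and 1 lower, which is 5.77% of the 104, when 4.05% of all shared regions did.

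**Figure D2:**
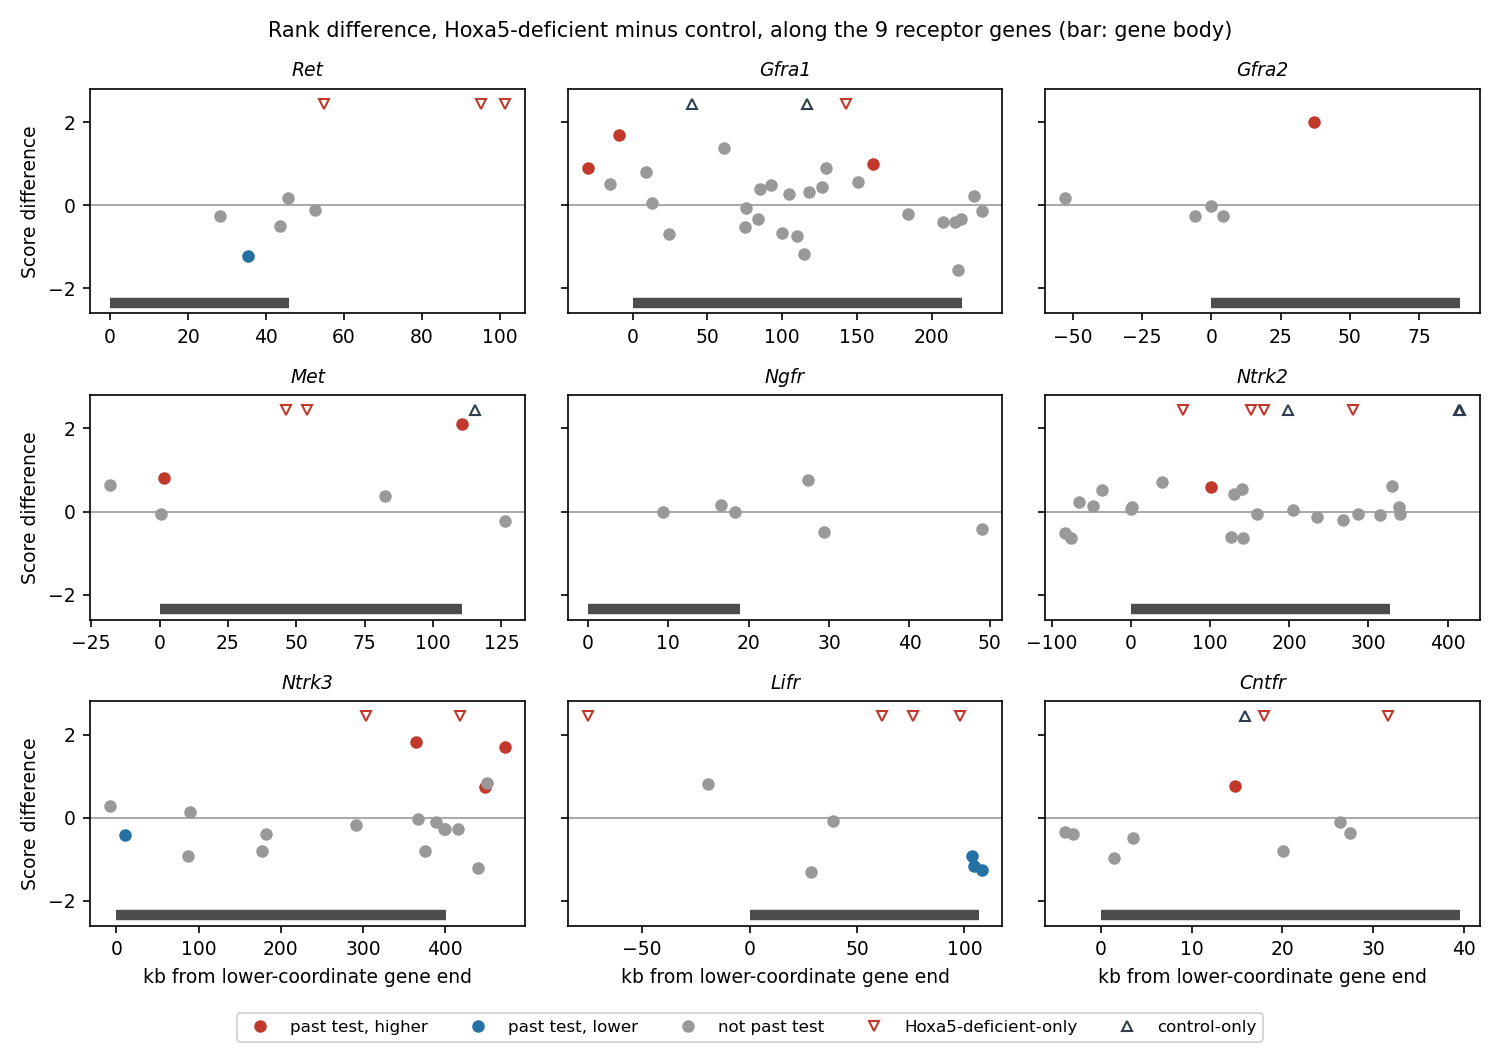
Difference in normal score of rank, Hoxa5-deficient minus control (y axis), of each region found in all 4 libraries against its distance in kb from the lower-coordinate end of its gene, with the gene body as a bar. Filled red and blue points passed the rank test as higher and lower; open triangles at the top mark regions found in both libraries of 1 genotype and neither of the other. The 3 blue points of Lifr, among its 6 points, stand together at its upper end, and none of the 6 points of Ngfr is past the test.

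Few receptor regions were single-genotype regions. Those found in both Hoxa5-deficient libraries and neither control numbered 18 of 311 (5.79%), against 9.16% of all regions assigned to a gene. Control-only regions numbered 7 (2.25%), against 3.50%. Regions in all 4 libraries made up 33.4%, near the 34.7% of all genes, and regions in a single library 40.2%, near 38.5%. Regions in 3 libraries numbered 48 (15.4%), against 9.66%, and at most of the 48 the missing library was a control. The control lists were the shorter ones, and this split was not counted over all genes. Regions in 1 library of each genotype numbered 9 (2.89%), against 4.48%. Both single-genotype shares were below those of the table, and a region absent from a list may lie just under the authors' threshold. With peaks of −log10 q of 5 or more alone, 29 of 163 receptor regions (17.8%) were found only in Hoxa5-deficient libraries, above the 12.1% of all genes. At that threshold 5 (3.07%) were control-only, below 4.44%, and 52 (31.9%) were in all 4 libraries, below 46.8%. With equal list lengths, 11 of 264 (4.17%) were found only in Hoxa5-deficient libraries, below 7.54% of all genes.

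**Figure D3:**
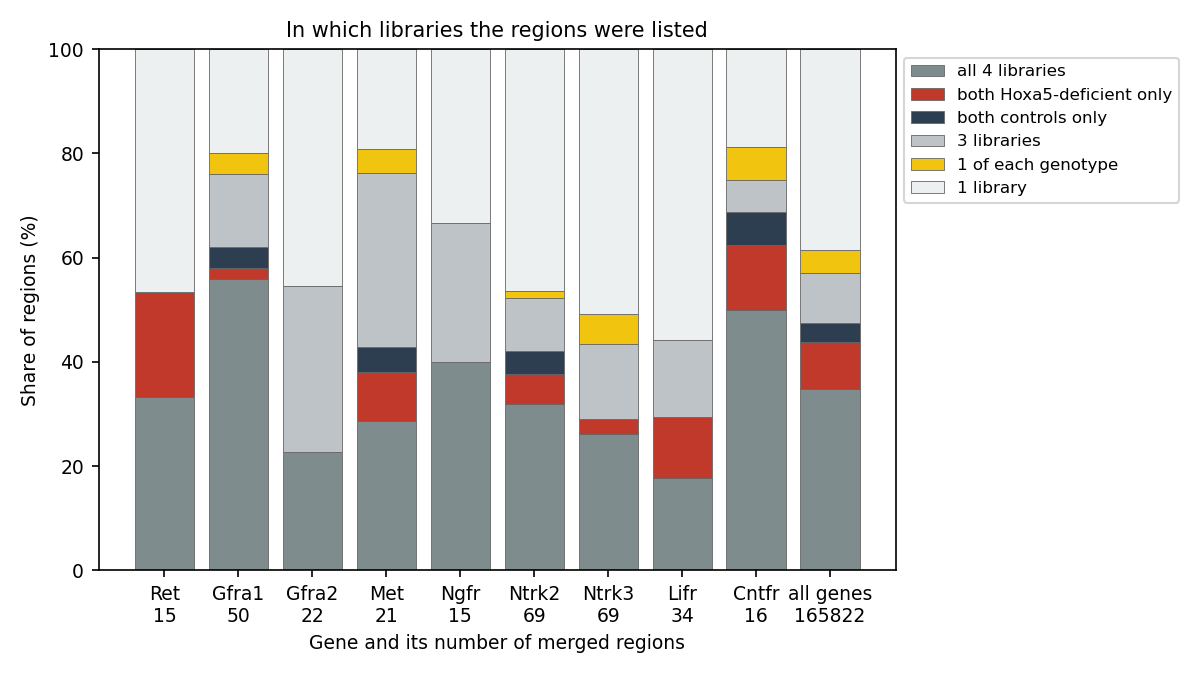
Share of each receptor gene's merged regions (y axis, percent) by the libraries in which they were listed, with the number of regions under each gene and all genes at the right. Gfra2 and Ngfr have no region listed in both libraries of 1 genotype and neither of the other, and Gfra1 has the largest share found in all 4 libraries at 56.0%, with 34.7% for all genes.

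In the GDNF family 3 of 28 shared Gfra1 regions and 1 of 5 shared Gfra2 regions passed as higher, and 1 of 5 shared Ret regions as lower. The shares over all shared regions were 11.1% higher and 9.53% lower. Gfra2, the coreceptor preferred by neurturin, had the region with the lowest adjusted p of the 104 (chromosome 14, 70926823 to 70927651), 37.13 kb inside the gene. Its summit held 115 and 177 tags in Hoxa5-deficient libraries and 17 and 18 in controls. The percentiles were 79.3 and 79.7 in Hoxa5-deficient libraries, against 7.9 and 17.2 in controls, a score difference of 2.0 (SE 0.23, limma adjusted p = 0.000122). The region was among the weaker shared regions in both controls and far above the median in both mutants. The other 4 shared Gfra2 regions did not pass, and the gene had no single-genotype region. The Gfra2 region without overlap in the lower direction was at 4.24 kb, with percentiles of 57.7 and 53.6 in Hoxa5-deficient libraries and 67.6 and 63.9 in controls (adjusted p = 0.192).

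Gfra1, the GDNF coreceptor, was the gene with the most shared regions, 28 of 50 (56.0%, against 34.7% of all regions assigned to a gene). A region 30.05 kb beyond its lower-coordinate end (chromosome 19, 58205084 to 58205986) held 140 and 245 tags in Hoxa5-deficient libraries and 54 and 33 in controls. It was higher, at percentiles of 82.7 and 85.3 in Hoxa5-deficient libraries and 60.0 and 47.5 in controls (score difference 0.90, SE 0.13, adjusted p = 0.000382; over its alternatives from 9.41e-11 to 0.0648, the highest without the variance trend). Since Gfra1 is on the minus strand, this is the side past its 3′ end. A second region there, 9.06 kb out (58226115 to 58226923), had 48.0 and 61.3 in Hoxa5-deficient libraries and 7.9 and 4.1 in controls (1.70, SE 0.35, adjusted p = 0.00435). Without Hoxa5-deficient library 2 the second one did not pass (adjusted p = 0.0821; over its alternatives from 1.13e-05 to 0.0821). The third lay within the gene at 161.03 kb (58396127 to 58397100), with 93 and 158 tags in Hoxa5-deficient libraries and 31 and 28 in controls, and percentiles of 73.4 and 75.7 in Hoxa5-deficient libraries and 36.1 and 37.3 in controls (1.0, SE 0.15, adjusted p = 0.000600).

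Gfra1 regions that leaned the other way did not pass. The largest score difference lay at 217.62 kb (58452971 to 58453436), with percentiles of 0.4 and 0.5 in Hoxa5-deficient libraries and 32.4 and 5.4 in controls (−1.56, SE 0.53, adjusted p = 0.0522). Over the gene, ranks did not overlap at 11 of 28 shared regions in the higher and 10 in the lower direction. The shares over all shared regions were 29.1% and 32.8%. Control-only regions of Gfra1 were at 58275428 to 58275763, with 14 and 13 tags, and at 58351841 to 58352138, with 21 and 14 tags. Its 1 region found only in Hoxa5-deficient libraries, at 58378035 to 58378316, held 17 and 28 tags. All 3 were weak, with own-list percentiles of 29.6 and 49.7 in Hoxa5-deficient libraries and from 3.3 to 24.0 in controls.

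Ret, the signalling kinase of the family, fell at 1 of 5 shared regions. That region (chromosome 6, 118186606 to 118187580) lay inside the gene, 35.34 kb from its lower-coordinate end. It held 27 and 20 tags in Hoxa5-deficient libraries and 59 and 39 in controls. Percentiles were 23.1 and 7.0 in Hoxa5-deficient libraries and 56.9 and 52.2 in controls (−1.22, SE 0.32, adjusted p = 0.0150), and without Hoxa5-deficient library 2 the difference was −0.79 (adjusted p = 0.0525; over its alternatives from 0.000352 to 0.0904). The strongest Ret region (118179525 to 118180386) had 81.4 and 78.2 in Hoxa5-deficient libraries and 85.9 and 86.2 in controls, without overlap, and did not pass (adjusted p = 0.0675). Next to it in strength was a region at 118203953 to 118204644, with 75.8 and 72.0 in Hoxa5-deficient libraries and 74.8 and 80.3 in controls. All 3 Ret regions found only in Hoxa5-deficient libraries lay outside the gene, 8.80, 49.08 and 55.28 kb from its body. The strongest of them (118252799 to 118253258) had 27 and 38 tags and own-list percentiles of 55.6 and 61.5. Ret had no control-only region.

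Met, the HGF receptor, passed as higher at 2 of 6 shared regions, beside 11.1% of all shared regions, and at none as lower. The larger difference was at the upper-coordinate end of the gene (chromosome 6, 17573542 to 17574213), which is its 3′ end. Summit tags were 65 and 97 in Hoxa5-deficient libraries and 14 and 15 in controls. Percentiles were 65.0 and 67.9 in Hoxa5-deficient libraries and 2.1 and 9.0 in controls, the largest score difference of the 104 regions at 2.11 (SE 0.35, adjusted p = 0.000955). The other, 1.78 kb inside the lower-coordinate end and next to the start region (17464779 to 17465486), had 70.6 and 59.1 in Hoxa5-deficient libraries and 49.0 and 21.1 in controls (0.80, SE 0.24, adjusted p = 0.0281). It lost its call without Hoxa5-deficient library 1 (0.63, adjusted p = 0.167) and without control library 2 (0.38, adjusted p = 0.11), and over its alternatives adjusted p ran from 3.85e-05 to 0.202. The strongest Met region lay 15.68 kb beyond the 3′ end (17589149 to 17590174), with 65.0 and 72.3 in Hoxa5-deficient libraries and 75.5 and 77.3 in controls (adjusted p = 0.161). Regions found only in Hoxa5-deficient libraries lay within Met at 17509354 to 17509945, with 26 tags in each, and at 17517169 to 17517428, with 16 and 12 tags. A control-only region lay 4.60 kb past the gene (17578461 to 17578707), with 15 and 16 tags.

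Among the neurotrophin receptors, 0 of 6 shared Ngfr regions, 1 of 22 at Ntrk2 and 4 of 18 at Ntrk3 passed the test. Over all shared regions 20.6% did. Ngfr, which binds all neurotrophins with low affinity, had no single-genotype region either. Its second strongest region, inside the gene (chromosome 11, 95577756 to 95578580), had percentiles of 74.1 and 69.9 in Hoxa5-deficient libraries and 74.0 and 71.4 in controls. The largest score differences without overlap were on the upper-coordinate side, before the start. A region at 95595714 to 95596616 had 38.3 and 30.0 in Hoxa5-deficient libraries and 11 and 13.2 in controls (0.76, SE 0.36, adjusted p = 0.149), and its neighbour at 95597690 to 95598587 had 22.7 and 18.1 in Hoxa5-deficient libraries and 37.6 and 36.8 in controls (−0.50, SE 0.31, adjusted p = 0.269).

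Ntrk2, the receptor for brain-derived neurotrophic factor, had 22 shared regions of 69. The changed one lay 101.29 kb inside the gene (chromosome 13, 58907342 to 58908188). It held 166 and 247 tags in Hoxa5-deficient libraries and 72 and 69 in controls. Percentiles were 84.3 and 84.5 in Hoxa5-deficient libraries and 64.6 and 68.9 in controls (0.58, SE 0.10, adjusted p = 0.00141; over its alternatives from 1.02e-06 to 0.0777, the highest without the variance trend). The second strongest Ntrk2 region (59092545 to 59093355) stood at 89.8 and 90.5 in Hoxa5-deficient libraries and 91.3 and 91.2 in controls, and did not pass (adjusted p = 0.615). Ntrk2 regions without overlap in the lower direction did not pass; the one at 58730552 to 58731006, whose score difference of −0.64 was as large as any of them, had 5.5 and 2.3 in Hoxa5-deficient libraries and 21.6 and 6.4 in controls (adjusted p = 0.384).

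Of the 69 Ntrk2 regions, 4 were found only in Hoxa5-deficient libraries and 3 were control-only. All 4 of the first kind lay inside the gene. The strongest 3 were at 58871566 to 58872277, with 39 and 34 tags, at 58957966 to 58958778, with 27 and 34 tags, and at 59086000 to 59086831, with 21 and 44 tags. Of the control-only regions, 1 lay inside the gene (59003861 to 59004437, with 28 and 13 tags). The others lay 86.37 and 88.25 kb beyond it, at 59220205 to 59220471 with 16 and 15 tags and at 59222084 to 59222350 with 15 and 18 tags.

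Ntrk3, the neurotrophin-3 receptor in proprioceptive sensory and motor neurons, was higher at 3 of 18 shared regions and lower at 1. Higher regions lay 365.13 kb from the lower-coordinate end inside the gene, and 47.53 and 71.81 kb beyond the upper-coordinate end. The intragenic region (chromosome 7, 78544818 to 78545417) had 34 and 51 tags in Hoxa5-deficient libraries and 14 and 13 in controls. Percentiles there were 35.2 and 41.5 in Hoxa5-deficient libraries and 2.1 and 1.4 in controls (1.82, SE 0.44, adjusted p = 0.00979). The nearer outside region (78628143 to 78628982) had 59.3 and 66.5 in Hoxa5-deficient libraries and 31.6 and 36.0 in controls (0.75, SE 0.19, adjusted p = 0.0128), and the farther (78652500 to 78653196) had 41.2 and 51.8 in Hoxa5-deficient libraries and 10.1 and 1.0 in controls (1.71, SE 0.44, adjusted p = 0.0135).

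All 3 lost the call without Hoxa5-deficient library 2, with adjusted p of 0.0897, 0.149 and 0.105, and the intragenic one also without Hoxa5-deficient library 1 (0.0580). Over all alternatives their adjusted p ran from 8e-05 to 0.149. The lower region (78190661 to 78191611) had 61.9 and 68.9 in Hoxa5-deficient libraries and 81.2 and 77.1 in controls (−0.42, SE 0.11, adjusted p = 0.0188). It did not pass without Hoxa5-deficient library 1 (0.112) or control library 1 (0.0794), with a range over alternatives from 0.00341 to 0.203. The strongest Ntrk3 regions, at 78595784 to 78596414 and at 78568759 to 78569501, had 78.6 and 71.3 and then 78.7 and 74.0 in Hoxa5-deficient libraries, against 84.3 and 80.4 and then 80.2 and 77.9 in controls. Neither passed. The largest score difference among lower regions, −1.20 at 78619963 to 78620640, had percentiles of 1.4 and 5.7 in Hoxa5-deficient libraries and 31.6 and 18.5 in controls, and did not pass either (adjusted p = 0.0822). Regions found only in Hoxa5-deficient libraries lay at 78598254 to 78598546, with 27 and 31 tags, and at 78483835 to 78484142, with 11 and 14 tags, and no Ntrk3 region was control-only.

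Of the CNTF and LIF receptor genes, Lifr was lower at 3 of 6 shared regions and Cntfr higher at 1 of 8. Over all shared regions 9.53% passed as lower and 11.1% as higher. The 3 Lifr regions stand next to each other around the 3′ end of the gene. The middle one (chromosome 15, 7194760 to 7195288) held 31 and 35 tags in Hoxa5-deficient libraries and 114 and 84 in controls. Percentiles were 32.1 and 26.3 in Hoxa5-deficient libraries and 75.4 and 71.3 in controls (−1.17, SE 0.17, adjusted p = 0.000543). Its neighbour at 7194132 to 7194619 had 28 and 35 tags in Hoxa5-deficient libraries and 71 and 76 in controls, with percentiles of 28.4 and 26.4 in Hoxa5-deficient libraries and 56.7 and 67.8 in controls (−0.92, SE 0.21, adjusted p = 0.00787). The third, 1.55 kb past the gene (7198851 to 7199230), had 6.3 and 3.7 in Hoxa5-deficient libraries and 25 and 45.5 in controls (−1.26, SE 0.42, adjusted p = 0.0459).

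Without control library 2 the first neighbour did not pass (−0.74, adjusted p = 0.0587; over alternatives from 3.92e-06 to 0.192). The third region did not pass without Hoxa5-deficient library 1 (0.0928), Hoxa5-deficient library 2 (0.179) or control library 2 (0.217), with a range over alternatives from 2.28e-05 to 0.224. A Lifr region 28.41 kb inside the gene (7118713 to 7119320) leaned the same way, with percentiles of 34.3 and 0.8 in Hoxa5-deficient libraries and 49.1 and 42.4 in controls (adjusted p = 0.0844). In the higher direction the one region without overlap lay 19.27 kb before the gene (7070815 to 7071867), with 41.7 and 37.1 in Hoxa5-deficient libraries and 33.3 and 4.1 in controls (adjusted p = 0.174). Lifr also had 4 regions found only in Hoxa5-deficient libraries and no control-only region. Of those 4, 3 lay inside the gene, at 7152148 to 7152493, 7166642 to 7166841 and 7188513 to 7188849, and all 4 were weak, with 12 to 18 tags.

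Cntfr, which lacks an intracellular domain, rose at a region 14.73 kb from its lower-coordinate end (chromosome 4, 41671645 to 41672805). It had 171 and 285 tags in Hoxa5-deficient libraries and 67 and 51 in controls. Percentiles were 83.1 and 84.0 in Hoxa5-deficient libraries and 59.8 and 56.9 in controls (0.76, SE 0.11, adjusted p = 0.000384; over its alternatives from 9.62e-10 to 0.0621, the highest with ranks of fold). The next strongest region, 3.97 kb beyond the 3′ end (41653335 to 41653722), had 61.4 and 61.8 in Hoxa5-deficient libraries and 74.4 and 72.8 in controls and did not pass (−0.34, SE 0.12, adjusted p = 0.0525). At 41658552 to 41659196 the percentiles were 10.2 and 3.8 in Hoxa5-deficient libraries and 34.3 and 23.5 in controls (adjusted p = 0.122). Ranks did not overlap at 5 of the 8 shared Cntfr regions in the lower direction and at 1 in the higher. Over all shared regions the shares were 32.8% lower and 29.1% higher.

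The region at the internal Cntfr start shown above (41689023 to 41689254) had 30 and 28 tags and own-list percentiles of 41.9 and 33.3 in Hoxa5-deficient libraries, and was not listed in either control. The single-genotype region with the most tags was also in Cntfr, at 41675261 to 41675688, with 39 and 111 tags and own-list percentiles of 35.7 and 72.2. A control-only region lay between this one and the changed shared region, at 41673197 to 41673631, with 20 and 22 tags.

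**Figure D4:**
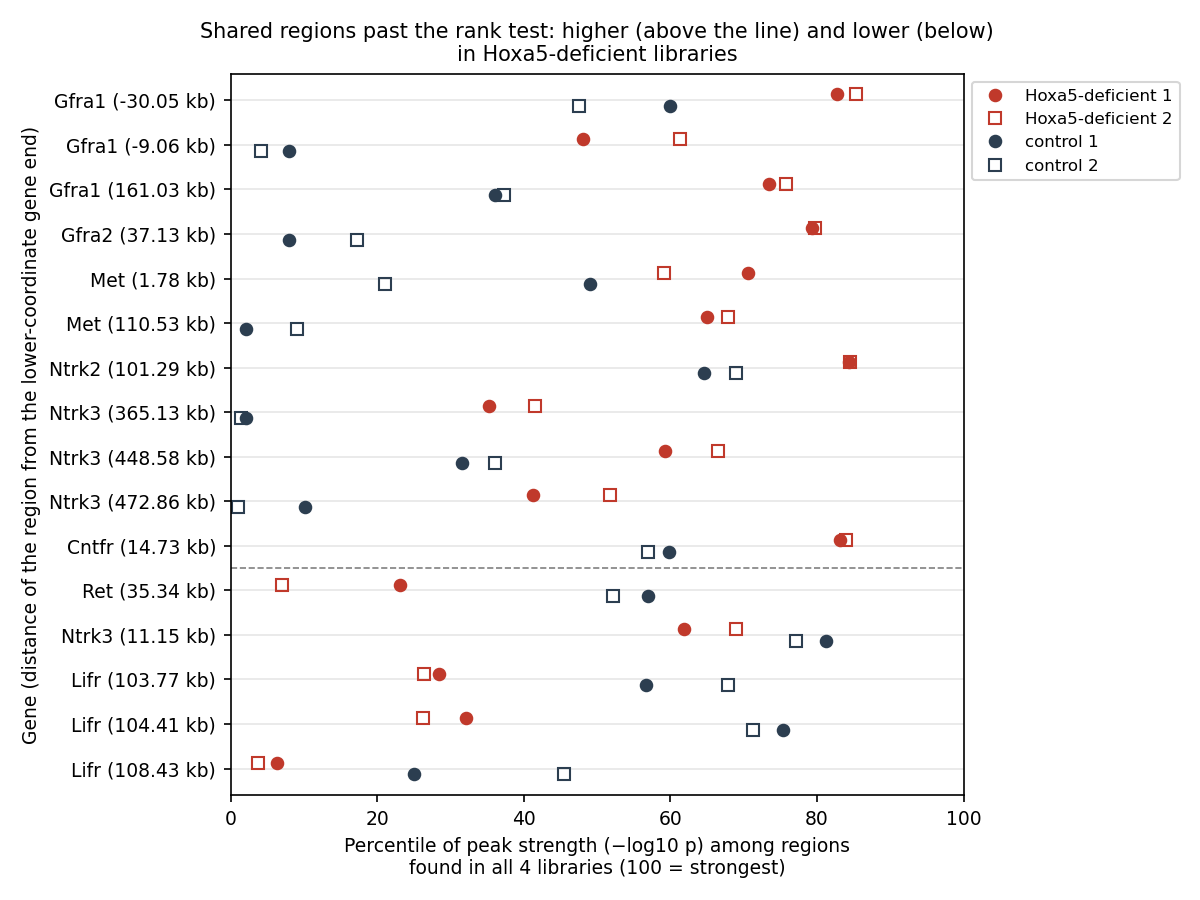
Percentile of peak strength (x axis) in each library, red for Hoxa5-deficient and dark for control, of the 16 receptor regions past the rank test, named by gene and distance from its lower-coordinate end. The 11 regions above the dashed line are higher in both Hoxa5-deficient libraries, and the 5 below it lower in both.

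No receptor gene passed the test on its number of regions. Lifr had 19 and 21 regions in Hoxa5-deficient libraries and 14 and 12 in controls, and Gfra2 had 15 and 15 in Hoxa5-deficient libraries and 8 and 13 in controls. Relative to list length the log2 difference was 0.34 for Lifr (SE 0.17, limma adjusted p = 0.279) and 0.27 for Gfra2 (SE 0.22, adjusted p = 0.506). None of the 9 genes passed in limma over 5606 genes, of which 2.6% did, and 0 had an unadjusted p under 0.05. The other differences ran from −0.08 for Gfra1 to 0.20 for Ntrk3.

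Strong regions alone gave another picture at 3 genes. Counting peaks with −log10 q of 5 or more, Met had 13 and 11 regions in Hoxa5-deficient libraries and 6 and 5 in controls (log2 difference 0.69, SE 0.17, adjusted p = 0.00109), and Gfra2 had 9 and 11 in Hoxa5-deficient libraries and 4 and 6 in controls (0.58, SE 0.18, adjusted p = 0.0109). Lifr had 6 and 5 in Hoxa5-deficient libraries and 9 and 7 in controls (−0.78, SE 0.19, adjusted p = 0.000555), the opposite sign to its count over whole lists. Under that threshold 24.9% of all genes tested passed. Under the other alternatives adjusted p was at least 0.322 for Met, 0.103 for Gfra2 and 0.17 for Lifr, and the other 6 genes passed under none.

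Other genes of the same pathways, 14 ligand genes, 6 other receptor genes and 8 signalling or target genes, held 321 regions. This list, too, was drawn up with earlier results known. Rank changed at 23 of its 91 shared regions, 10 higher and 13 lower, which is 25.3% beside the 20.6% of all shared regions. By presence, 29 regions (9.03%) were found only in Hoxa5-deficient libraries, beside 9.16% of all regions assigned to a gene, and 15 (4.67%) were control-only, beside 3.50%. The highest counts of regions of the mutants alone were 6 of 18 regions at Jak1, 6 of 69 at Igf1r and 5 of 14 at Hgf, and control-only regions numbered 5 of 30 at Gab1 and 4 of 69 at Igf1r. Hgf, the ligand of Met, had 7 and 11 regions in Hoxa5-deficient libraries and 4 in each control, and Jak1, a kinase that acts under Lifr, had 12 in each Hoxa5-deficient library and 6 in each control. Gab1, an adaptor of Met, had 13 and 10 in Hoxa5-deficient libraries and 19 and 15 in controls. By region number none of the 3 passed, with adjusted p of 0.105, 0.0835 and 0.0501, and no other gene of this list did. Etv4, a transcription factor that GDNF induces in motor neurons, passed as lower at 2 of 5 shared regions. Its relative Etv5 did so at 2 of 7. Of all shared regions 9.53% passed as lower. Neither gene had a region past the test as higher, though at Etv5 ranks did not overlap at 2 regions in each direction. At Hgf 2 of 2 shared regions passed as higher, beside 11.1% of all shared regions.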

How the data were processed

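Per the submitters' processing notes, reads were handled with FastQC 0.11.9, Bowtie2 2.3.4.3, SAMtools 1.9 and MACS2 2.2.4 on mm10; parameters and a Tn5 shift are not given in the sources used here. Each library has its own peak list, in which the authors deposited a fold enrichment ratio, −log10 p-values, −log10 q-values and a capped score (not used here). Peak numbers in the lists have gaps, by a filter that is not stated.

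Intervals were merged at 1 bp of overlap and assigned by midpoint to 21887 protein-coding bodies of RefSeq's GRCm38.p6 table, whose coordinates are those of mm10. Exon limits were not used here. Tag pileups were solved from fold and p. Ranks of −log10 p among shared regions were turned to normal scores and fitted with limma 3.58.1 in R 4.3.3 (variance trend, threshold 0.05 after Benjamini-Hochberg adjustment); log2(regions + 1) per gene, less list length, was fitted likewise for genes with a mean of 5 regions or more. Scripts were tested on simulated data. The p-values measure the spread between these libraries only.

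The members, lists and motifs were chosen with earlier results of these data known. Regions named per gene are those at gene ends, the 2 strongest shared, all control-only, up to 3 found only in mutants, those called, and per direction the largest gap without overlap. A further region near the upper-coordinate end of Ntrk3 is named as well. A gene that the rule names among the other pathway genes is not reported here.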

Additional observations from a re-analysis of the deposited data

How the results depend on the processing

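The 16 regions past the rank test kept their sign under every alternative run. All 16 also passed with log2 of −log10 p and with recovered tags, 14 with ranks in the own list, 11 with ranks of fold and 6 without the variance trend. The receptor regions past the test numbered 25 with log2 of −log10 p (24.0%, with 24.8% of all shared regions), 25 with recovered tags (24.0%, with 28.9%; an alternative chosen after seeing the data, in which mutants lay 0.202 higher on the log2 scale over all shared regions before centring), 6 without the variance trend (5.77%, above the 4.05% of all shared regions, where the main share lay below) and 9 of 52 at −log10 q of 5 or more (17.3%, with 19.1%); leaving out 1 library gave from 10 to 23. The shared receptor regions numbered 108 to 127 without 1 library, and each share past the test was below that of all shared regions. With the replicate block 23 of 104 passed (22.1%, with 24.9% of all shared regions), and the 16 were among them. On region number 0 genes passed with that block. The replicate numbers share no more than a number here (r = −0.00125 over regions, −0.0151 over genes). Regions of both mutants alone numbered 29 of 163 at −log10 q of 5 or more (17.8%, with 12.1% of all genes). They numbered 11 of 264 with equal list length (4.17%, with 7.54%) and 30 of 438 with summit windows (6.85%, with 8.81%). Without 1 library they numbered from 33 to 65, with shares of 11.6% to 23.2%, beside 13.4% to 23.7% of all genes. Control-only ones numbered 4 of 197 inside gene bodies (2.03%, with 3.40%). Without 1 library they numbered from 9 to 35, with shares of 3.31% to 11.8%, beside 5.5% to 15.1%. With 1 library for a genotype, a region needs only that library, so such counts are larger by construction.

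On region number (limma) 3 genes passed at −log10 q of 5 or more and 0 under the other alternatives, where 0 to 2 had an unadjusted p under 0.05. Differences that were not past the test in the main analysis changed sign at several genes. With equal list length they were 0.047 for Ntrk2, −0.033 for Lifr and 0.078 for Cntfr. At −log10 q of 5 or more they were −0.088 for Ret, 0.689 for Met, 0.180 for Ntrk2 and −0.775 for Lifr. Without the offset for list length they were 0.166 for Gfra1, 0.240 for Met, 0.240 for Ntrk2 and 0.208 for Cntfr, and inside gene bodies 0.256 for Met and 0.197 for Ntrk2. Without 1 library the range was −0.253 to 0.164 for Cntfr, −0.228 to 0.249 for Ret, −0.121 to 0.129 for Met, −0.173 to 0.193 for Ntrk2, −0.065 to 0.609 for Gfra2, −0.135 to 0.018 for Gfra1 and −0.163 to 0.385 for Ngfr. The cause was not tested.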
